A study of Mus musculus with 10 samples.

Results

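Of the 19 Wnt ligand genes among the 32285 genes counted, 10 were followed here across both tissues of the mouse lower jaw, namely *Wnt3*, *Wnt4*, *Wnt5a*, *Wnt5b*, *Wnt6*, *Wnt7a*, *Wnt7b*, *Wnt10a*, *Wnt10b* and *Wnt11*. They were taken by name, with earlier results of these data known, and all 10 were found by symbol among the counted genes. Wnt proteins are lipid-modified secreted ligands. They bind Frizzled receptors on nearby cells and either stabilise β-catenin through the Lrp5 and Lrp6 co-receptors or act through Ror and Ryk receptors without it, and secreted inhibitors limit how far they reach. In teeth they pass between the epithelium and the mesenchyme beneath it and are known for placode and enamel knot signalling.

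The data were single-cell RNA counts from wild type NMRI embryos, obtained with 10x Genomics 3′ libraries. Whole mandibles were used at E11.5, the initiation stage, and buds of the lower incisor at both later stages, E14.5 and E16.5, although the sample labels give developing incisor as the tissue of every stage. The labels name no transgene or treatment, and each stage was deposited as 1 matrix of cells from more than 1 mandible. The labels list 4, 4 and 2 samples, but the cells of a stage could not be assigned to samples, so each stage was 1 sample, no test was made, and stage, dissected tissue and sample cannot be told apart.

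Cells needed 700 detected genes and no more than 20% mitochondrial UMIs to be kept, which left 6573, 6091 and 4511 cells with medians of 5664, 3471 and 6260 UMIs (unique molecular identifiers, each standing for 1 captured RNA molecule). Each cell took the lineage whose marker genes gave at least 3 UMIs from at least 2 markers and at least 3 times the marker UMIs of every other lineage. No Wnt gene was a marker. Mesenchyme comprised 5518, 4321 and 2452 cells and epithelium 10, 777 and 1481 cells, and 12.29%, 11.46% and 9.62% of cells stayed without a lineage. The matrices of any 2 stages shared 13 to 17 barcodes. The Y-linked genes *Ddx3y*, *Eif2s3y*, *Kdm5d* and *Uty* had no UMI at E11.5 and 151 to 720 UMIs each at the later stages, a difference that moved with the stage and whose part in the results was not tested. Levels are CPM, counts per 1000000 UMIs after all UMIs in a group of cells were added up, a scale that does not depend on gene length in 3′ libraries. The brackets hold 95% intervals, exact Poisson for levels and exact conditional binomial for folds, which cover counting error only and not the spread between embryos.

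The epithelium of E11.5 rested on 10 cells with 129532 UMIs in all. *Epcam* was detected in 8 of them and *Cldn7* in 9, and *Prrx1*, *Twist1* and *Pdgfra*, which mark mesenchyme, had no UMI. All of these genes were among the markers that called the lineage, so their values follow in part from the call. Other markers were less clear, with *Krt5* in 20% and *Krt14* in 30% of the cells. Of the mesenchymal markers *Prrx2* was found in 20%, and *Col1a2* and *Col3a1* in 10% each. In these cells *Wnt4* had 30 UMIs spread over 8 cells with at most 6 in a cell, whereas *Wnt6* had 21 UMIs over 5 cells, 13 of them in 1 cell. *Wnt5a* had 6 UMIs and *Wnt3*, *Wnt7b* and *Wnt10a* had 2 each. *Wnt5b*, *Wnt7a*, *Wnt10b* and *Wnt11* had no UMI, which allows a level of up to 23.2 CPM for each. A level at E11.5 in epithelium is therefore known only coarsely, and most of what follows concerns the later stages.

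**Figure D1:**
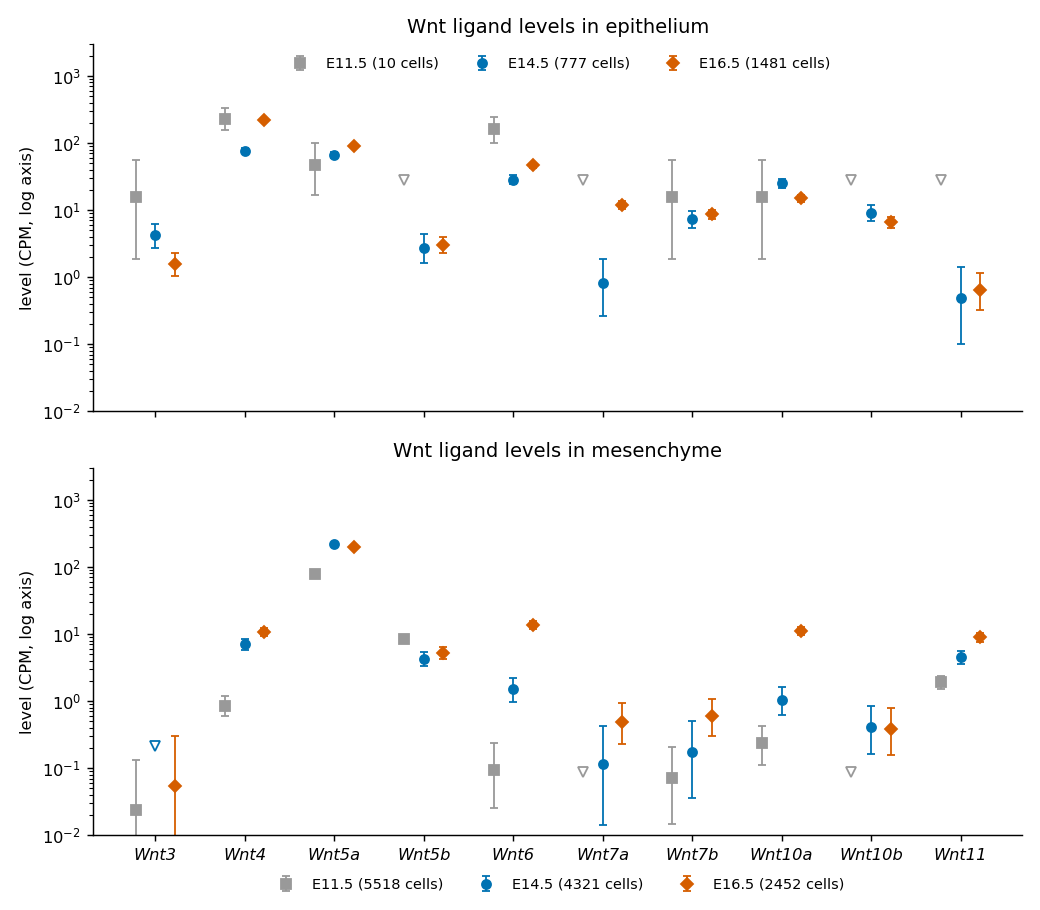
Level of each Wnt ligand gene in epithelium (top) and mesenchyme (bottom) at the 3 stages, in CPM on a log axis. Symbols are the level of all cells of a group, bars the 95% exact Poisson interval, and open triangles the upper limit where no UMI was found. *Wnt4* and *Wnt5a* were the highest in epithelium at E14.5 and E16.5, and *Wnt5a* stood above all others in mesenchyme at every stage.

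Most members were higher in the same tissue at E14.5 and E16.5, though not by the same fold. *Wnt4*, *Wnt6*, *Wnt7b* and *Wnt10b* were at higher levels in epithelium and *Wnt5a* and *Wnt11* in mesenchyme, while *Wnt10a* was mainly epithelial at E14.5 and at similar levels in both tissues at E16.5. To count members, a gene was called higher when its level, with 10 CPM added to both sides, was at least 2-fold higher and both groups together had at least 20 UMIs. At E14.5, 3 of the 10 members were called higher in epithelium (*Wnt4*, *Wnt6* and *Wnt10a*), against 3.17% of all 13017 genes with at least 20 UMIs, and 1 in mesenchyme (*Wnt5a*), against 3.73%. At E16.5, 3 were called higher in epithelium (*Wnt4*, *Wnt6* and *Wnt7a*), against 3.19% of 14077 genes, and 1 in mesenchyme (*Wnt5a* again), against 4.03%. The median log2 ratio of epithelium over mesenchyme over the 10 members was 0.64 at E14.5 and 0.46 at E16.5, and over all genes tested 0.01 and 0.03. Members with at least 20 UMIs over both tissues numbered 9 at E14.5, 10 at E16.5 and only 5 at E11.5. At E11.5 *Wnt5b* and *Wnt11* were under 10 CPM in mesenchyme, so with 10 CPM added neither could be called higher there. The 10 epithelial cells of E11.5 gave 2 members called higher (*Wnt4* and *Wnt6*), against 4.87% of genes, and 0 called higher in mesenchyme, against 8.52%. The 2 became 0 when cells were thinned to 2000 UMIs, and 1 without the 5% of cells with the most UMIs. The 10 CPM decided these counts, since with 1 CPM added 6 members were called higher in epithelium at E14.5 and at E16.5, and with 50 CPM added 1 at each stage.

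**Figure D2:**
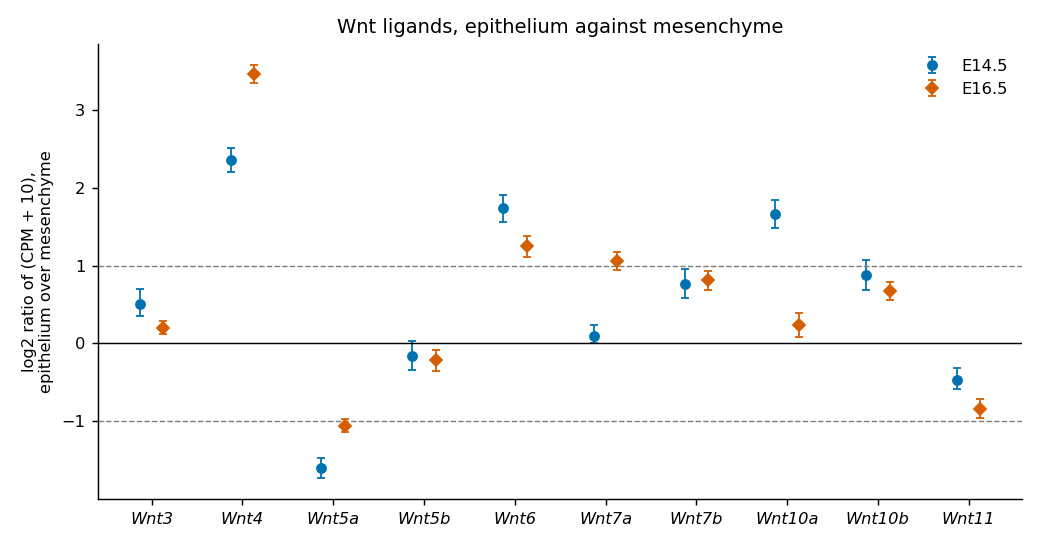
Log2 ratio of epithelium over mesenchyme for each Wnt ligand gene at E14.5 and E16.5, with 10 CPM added to both levels. Bars are 95% intervals for counting error and dashed lines mark 2-fold. *Wnt4* moved furthest above the line and *Wnt5a* was the only gene below it, while *Wnt10a* was at 1.66 at E14.5 and 0.24 at E16.5.

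*Wnt4*, a ligand known for kidney tubule and reproductive tract formation, had the highest level of the members in epithelium at E16.5 (ENSMUSG00000036856, chr4:137277489-137299726 on the plus strand of GRCm38). It was at 77.3 CPM in epithelium at E14.5 (70.5 to 84.5) and 219 CPM at E16.5 (212 to 226). In mesenchyme it was at 0.846 CPM at E11.5, then 7.01 at E14.5 and lastly 10.7 at E16.5. The epithelial level was thus 11.03-fold the mesenchymal level at E14.5 (9.02 to 13.6) and 20.4-fold at E16.5 (17.7 to 23.7). Endothelial cells, which served as a comparison tissue, held *Wnt4* at 10.1 CPM at E14.5 (4.07 to 20.8) and 11.7 at E16.5 (5.82 to 20.9), from 7 and 11 UMIs. The source of the mesenchymal and endothelial *Wnt4* UMIs was not tested. A *Wnt4* UMI was found in 55.03% of epithelial cells at E16.5 and 7.14% of endothelial cells, with median depths of 7190 and 5762 UMIs. After each cell was thinned to 2000 UMIs, with 99 epithelial and 7 endothelial cells too shallow and left out, the shares were 28.2% and 0 of 105. From E14.5 to E16.5 the epithelial level was 2.83-fold higher (2.58 to 3.12). In the 968 epithelial cells of E16.5 without any mesenchymal marker UMI, a subset chosen after the data were seen, *Wnt4* was at 143 CPM, and at 70.4 in the 488 such cells of E14.5.

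*Wnt6*, *Wnt7b*, *Wnt10b* and *Wnt3* were also higher in epithelium than in mesenchyme, at lower levels than *Wnt4*. *Wnt6* (ENSMUSG00000033227, chr1:74771892-74785322, plus strand) was at 28.3 CPM at E14.5 (24.3 to 32.9) and 46.2 at E16.5 (43.1 to 49.6). *Wnt7b* (ENSMUSG00000022382, chr15:85535437-85582473, minus strand), known from oral ectoderm where it opposes *Shh*, was at 7.29 CPM (5.32 to 9.75) and 8.66 (7.32 to 10.2). *Wnt10b* (ENSMUSG00000022996, chr15:98770712-98778150, minus strand), a ligand of the β-catenin branch, was at 9.07 CPM (6.85 to 11.8) and 6.55 (5.40 to 7.88). For *Wnt7b* and *Wnt10b* the intervals of E14.5 and E16.5 overlapped. In mesenchyme *Wnt7b* stayed at or below 0.605 CPM and *Wnt10b* at or below 0.405 at all stages, so that at E14.5 the epithelial level was 42.0-fold higher for *Wnt7b* (13.5 to 211) and 22.4-fold higher for *Wnt10b* (10.2 to 58.2).

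*Wnt3* (ENSMUSG00000000125, chr11:103774150-103817957, plus strand), needed for gastrulation and made in limb ectoderm, was low and found mainly in epithelium. It had 26 UMIs in epithelium at E14.5, a level of 4.21 CPM (2.75 to 6.17), and none among the 17270730 mesenchymal UMIs, which makes the epithelial level at least 24.2-fold higher. At E16.5 the counts were 27 UMIs in epithelium, 1.58 CPM (1.04 to 2.30), and 1 in mesenchyme. The epithelial level of E16.5 was 0.375 times that of E14.5 (0.211 to 0.669).

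*Wnt7a* (ENSMUSG00000030093, chr6:91363981-91411363, minus strand), the ligand of dorsal limb ectoderm, was at a higher epithelial level at E16.5 than at E14.5. It had 0 UMIs in kept cells of E11.5, where the 10 epithelial cells allow a level above that of E16.5, and 5 UMIs in epithelium at E14.5 and 204 at E16.5. Its epithelial level went from 0.810 CPM (0.263 to 1.89) to 11.9 (10.4 to 13.7), a 14.7-fold difference (6.21 to 45.9). At E16.5 these UMIs lay in 170 cells with at most 4 in a cell, and mesenchyme had 9 UMIs. After thinning, 0.284% of epithelial cells had a UMI at E14.5 and 2.39% at E16.5.

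*Wnt5a* (ENSMUSG00000021994, chr14:28504750-28527448, plus strand), known for signalling through Ror receptors in outgrowing limbs and jaws, had the highest mesenchymal level of the members at every stage. In mesenchyme it was at 79.3 CPM at E11.5 (76.7 to 82.1), 220.0 at E14.5 (213 to 227) and 196 at E16.5 (190.0 to 203). Cells with a UMI made up 51.1% of mesenchyme at E14.5 and 4.23% of endothelium, with median depths of 3376 and 3205 UMIs, and 34.4% and 0.926% after thinning. It was also found in epithelium, at 65.9 CPM at E14.5 (59.7 to 72.7) and 89.5 at E16.5 (85.0 to 94.1), against 8.67 and 6.36 in endothelium. *Col1a2*, the highest of the mesenchymal markers in epithelium, was at 63.7 and 74.5 CPM there, and at 500 and 617 in mesenchyme. It stood apart from the other mesenchymal markers. *Col3a1*, the next in epithelium, was at 16.4 and 10.1 CPM there, and at 1167 and 1462 in mesenchyme. All of these markers were also used to exclude cells from epithelium. The part of mesenchymal RNA carried into epithelial droplets was not tested. The mesenchymal level of *Wnt5a* was 3.34-fold its epithelial level at E14.5 (3.01 to 3.71) and 2.20-fold at E16.5 (2.07 to 2.33). In the added subset without marker UMIs of the other tissue, epithelial *Wnt5a* was at 66.6 CPM at E14.5 and 65.5 at E16.5, so the difference between the stages in epithelium was lost there. *Wnt4* was also lower in this subset at E16.5 than in all epithelial cells, and what else sets the subset apart was not tested.

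*Wnt5b* (ENSMUSG00000030170, chr6:119432531-119544347, minus strand), the closest relative of *Wnt5a*, was low in both tissues. Its mesenchymal level was 8.37 CPM at E11.5 (7.52 to 9.28), 4.28 at E14.5 (3.36 to 5.38) and 5.17 at E16.5 (4.18 to 6.32), and its epithelial level 2.75 and 3.04 at the later stages. At E14.5 the fold between the tissues had an interval that reached 1 (1.56-fold higher in mesenchyme, 0.909 to 2.81), and at E16.5 it was 1.70-fold (1.20 to 2.43).

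*Wnt11* (ENSMUSG00000015957, chr7:98835112-98855195, plus strand), known from kidney branching and cell movements at gastrulation, was low and mainly mesenchymal, within 2-fold between the tissues once 10 CPM was added. Its mesenchymal level was 1.93 CPM at E11.5 (1.53 to 2.39), 4.52 at E14.5 (3.57 to 5.64) and 9.01 at E16.5 (7.69 to 10.5). The epithelium had 0, 3 and 11 UMIs at the 3 stages, and endothelium none at any. At E16.5 the mesenchymal level was 14.01-fold the epithelial level (7.63 to 28.6). *Wnt5a*, *Wnt7b* and *Wnt11* each share exon sequence with a gene annotated on the opposite strand (*Gm2670*, *AU022754* and the pseudogene *Gm8398*), and the strand setting of the counting is not given in the sources used here.

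*Wnt10a* and *Wnt6* had smaller ratios of epithelium over mesenchyme at E16.5 than at E14.5, with higher mesenchymal levels. *Wnt10a* (ENSMUSG00000026167, chr1:74791516-74804179, plus strand), whose loss causes missing teeth in humans, was at 24.9 CPM in epithelium at E14.5 (21.2 to 29.2) and 15.1 at E16.5 (13.3 to 17.1). In mesenchyme it had 10, 18 and 205 UMIs in stage order, that is 0.235, 1.04 and 11.3 CPM. The epithelial level was 23.9-fold the mesenchymal level at E14.5 (14.7 to 41.5) and 1.34-fold at E16.5 (1.11 to 1.62). *Wnt6* had 4, 26 and 248 UMIs in mesenchyme, that is 0.0940, 1.51 and 13.6 CPM, and the epithelial level went from 18.8-fold higher (12.4 to 29.6) to 3.39-fold higher (2.94 to 3.93). Between E14.5 and E16.5 the mesenchymal level was 10.8-fold higher for *Wnt10a* (6.67 to 18.6) and 9.05-fold higher for *Wnt6* (6.03 to 14.1).

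Each member's mesenchymal level was then set against its own epithelial level, beside the same percentage for the marker genes of epithelium. The part of epithelial RNA carried into mesenchymal droplets in these levels was not tested. At E16.5 the 11 epithelial marker genes stood in mesenchyme at 1.80% to 4.52% of their epithelial levels. These markers were used to exclude cells from mesenchyme, which lowers their levels there, and no Wnt gene was. Their range is therefore not a like measure for the members. *Wnt7a* was at 4.14%, *Wnt4* at 4.90%, *Wnt10b* at 5.87% and *Wnt7b* at 6.98%. *Wnt6* was at 29.5% and *Wnt10a* at 74.6%. In endothelium *Wnt6* was at 4.59%, from 2 UMIs, and *Wnt10a* had no UMI, which allows up to 3.18 CPM. At E14.5 *Wnt4* was at 9.07% in mesenchyme, *Wnt6* at 5.31%, *Wnt10b* at 4.47%, *Wnt10a* at 4.18% and *Wnt7b* at 2.38%, while the markers ranged from 1.31% to 3.37%. *Wnt7a* was at 14.3%, from 2 mesenchymal UMIs, and *Wnt3* had none. In the 1497 mesenchymal cells of E16.5 with no epithelial marker UMI, *Wnt6* was at 13.6 CPM and *Wnt10a* at 9.45.

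**Figure D3:**
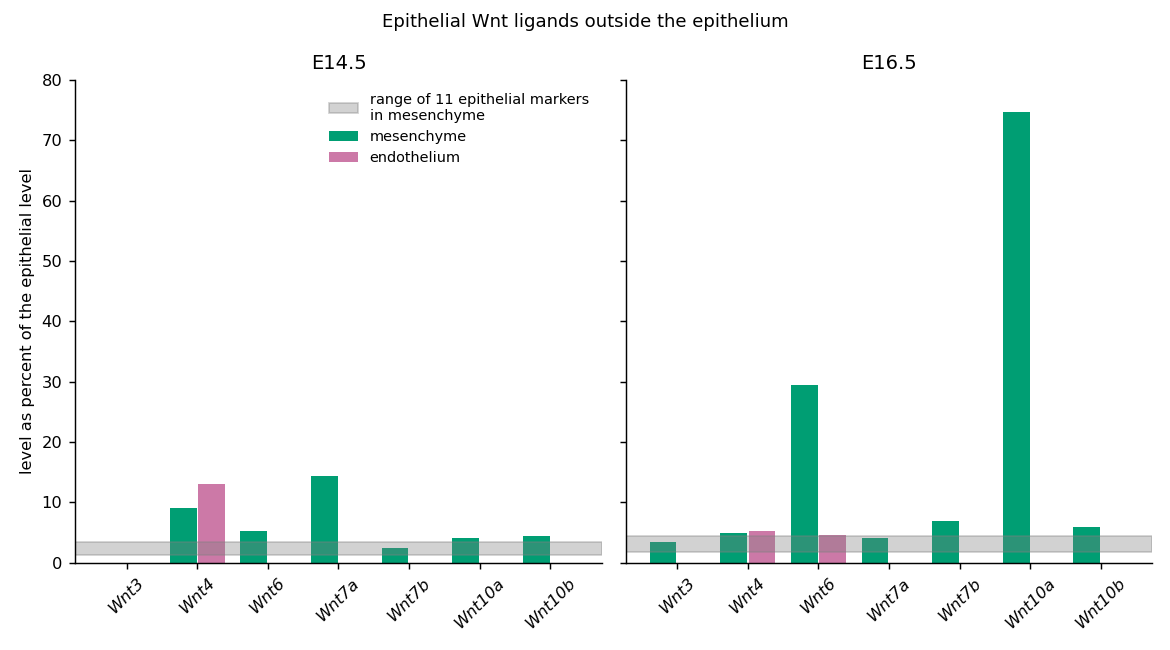
Level of 7 Wnt ligand genes in mesenchyme and endothelium as a percent of their level in epithelium, at E14.5 and E16.5, with the range of the 11 epithelial markers in mesenchyme in grey. At E16.5 the mesenchymal bars of *Wnt6* (29.5%) and *Wnt10a* (74.6%) stand far above the grey band. The band is lowered because its markers, unlike the Wnt genes, were used to exclude cells from mesenchyme. *Wnt7a* at E14.5 rests on 2 mesenchymal UMIs.

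Of the anchor genes used to split the mesenchyme, *Fgf3*, a growth factor of the dental papilla, gave the largest ratio for both. The 202 cells with an *Fgf3* UMI held 44.4% of the *Wnt6* UMIs and 44.4% of the *Wnt10a* UMIs, with 14.7% of all mesenchymal UMIs. *Wnt6* was at 41.0 CPM in these cells (33.7 to 49.4) and 8.90 in the others (7.47 to 10.5), and *Wnt10a* at 33.9 (27.3 to 41.7) and 7.35 (6.06 to 8.83). *Wnt5a* was near level in the same split, at 217 and 193 CPM, and *Wnt11* was lower with *Fgf3*, at 3.36 and 9.99 CPM. The cells with *Fgf3* were deeper, with a median of 10870 UMIs against 5757. At 2000 UMIs per cell, *Wnt10a* was found in 15.4% of the 52 mesenchymal cells with a *Wnt6* UMI (6.88% to 28.1%, exact Clopper-Pearson interval) and 1.14% of the 2364 without one (0.754% to 1.66%), which rests on 8 cells with both. *Wnt5a* was likewise found more often with *Wnt6*, in 26 of the 52 cells (35.8% to 64.2%) and 29.2% of the others (27.4% to 31.1%). *Wnt6* and *Wnt10a* lie next to each other on chromosome 1, on the same strand and 6193 bases apart. The 250 bases before the start of *Wnt6*, the first gene of this pair, are shown from RefSeq on GRCm38.p6 (chr1:74771642-74771891, plus strand). They hold 28 CpG pairs and 79.6% G and C, against medians of 6 and 52.4% over 32851 such windows, and none of the motifs searched (CTTTGAA or CTTTGAT of TCF/LEF factors, TATAAA, and CAGCTG, on both strands).
*Wnt6*: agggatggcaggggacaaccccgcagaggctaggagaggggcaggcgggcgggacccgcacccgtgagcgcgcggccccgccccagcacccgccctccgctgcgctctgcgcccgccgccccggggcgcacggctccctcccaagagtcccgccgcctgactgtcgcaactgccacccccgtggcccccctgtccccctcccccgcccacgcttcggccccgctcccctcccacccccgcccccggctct

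Of the 10 members, 7 had a window in the RefSeq table, and *Wnt5a*, *Wnt7b* and *Wnt10a* had none. The TCF/LEF letters, which 7.48% of all windows hold, were found before 1 of 2 starts of *Wnt11* and 1 of 3 starts of *Wnt5b*. The *Wnt11* window with the match (chr7:98834862-98835111, plus strand) is shown with the letters, read on the minus strand, in capitals, and it also holds TATAAA 29 bases before the start. A match is a description of the letters and not a site of binding.
*Wnt11*: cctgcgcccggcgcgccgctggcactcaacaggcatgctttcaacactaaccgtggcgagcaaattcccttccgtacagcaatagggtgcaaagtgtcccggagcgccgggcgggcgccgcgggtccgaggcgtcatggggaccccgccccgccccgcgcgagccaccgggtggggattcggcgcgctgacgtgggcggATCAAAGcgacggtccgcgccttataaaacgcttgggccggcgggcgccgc

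Within the epithelium, cells were split by whether they had a UMI of an anchor gene. At E14.5 the 109 cells with a UMI of *Shh*, the ligand of the enamel knot, held 19.5% of all epithelial UMIs but 77.9% of the *Wnt10a* UMIs, 76.9% of *Wnt3* and 71.4% of *Wnt10b*. *Wnt10a* was at 99.9 CPM in them (82.8 to 119) and 6.84 in the other 668 (4.74 to 9.56), *Wnt10b* at 33.3 and 3.22, and *Wnt3* at 16.6 and 1.21. *Wnt5a* was at 140 CPM with *Shh* (119 to 163) and 48.1 without (42.2 to 54.6). For *Wnt4* the intervals overlapped at this stage, with 74.9 CPM with *Shh* (60.2 to 92.1) and 77.8 without (70.3 to 86.0). The cells with *Shh* were the deeper ones, with a median of 5587 UMIs against 4922 and 19.5% of the UMIs in 109 of 777 cells, and the part of depth in these values was not tested.

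At E16.5 *Shh* was found in 450 epithelial cells with 37.9% of the UMIs. These held 65.9% of the *Wnt5a* UMIs, at 156 CPM (146 to 165) against 49.1 (44.97 to 53.5), and 68.2% of the *Wnt10a* UMIs, at 27.2 CPM (23.3 to 31.5) against 7.73 (6.15 to 9.59). *Wnt10b* with 74.1% and *Wnt3* with 88.9% of their UMIs lay on the same side. *Wnt4* and *Wnt7b* lay on the other, *Wnt4* at 128 CPM with *Shh* (120 to 137) and 274 without (264 to 285), and *Wnt7b* at 1.85 (0.957 to 3.23) and 12.8 (10.8 to 15.2). The depth differed here, with medians of 8838 and 6402 UMIs.

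**Figure D4:**
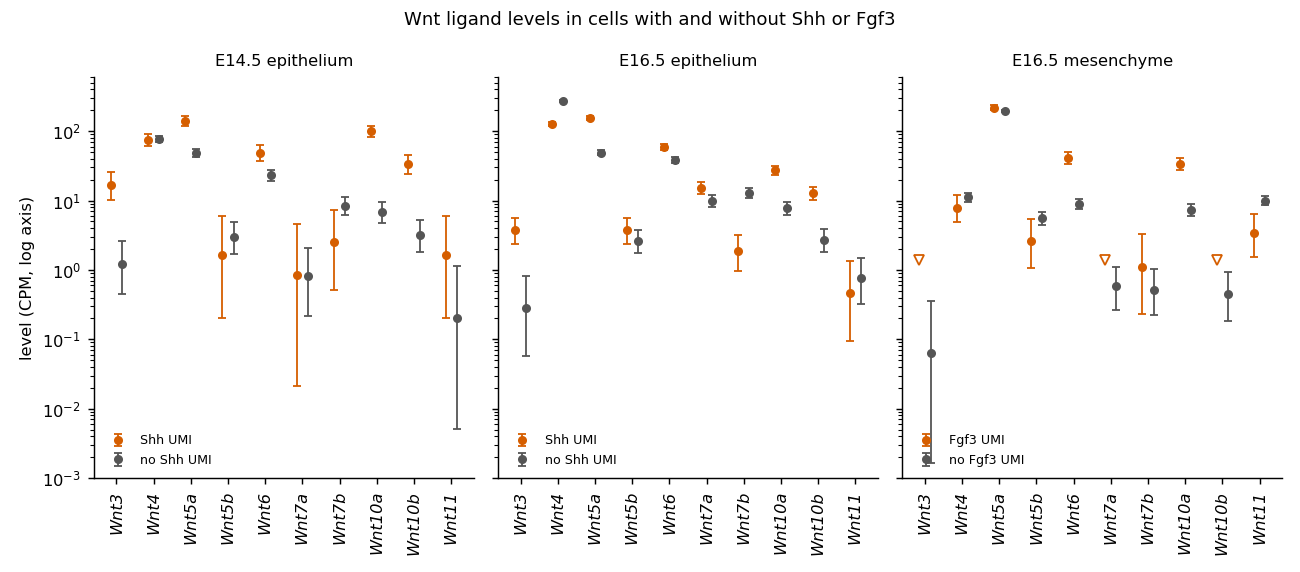
Level of each Wnt ligand gene in CPM (log axis) in cells with and without a *Shh* UMI in epithelium at E14.5 and E16.5, and with and without an *Fgf3* UMI in mesenchyme at E16.5. Bars are 95% exact Poisson intervals and open triangles the upper limit of a level of 0. *Wnt10a* separates most at E14.5 (99.9 and 6.84), and *Wnt4* and *Wnt7b* are lower with *Shh* at E16.5.

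Other anchor genes gave the largest ratio in the remaining cases past 2-fold, with 10 CPM added and at least 20 UMIs. For *Wnt5b*, *Wnt7a* and *Wnt11* no anchor passed 2-fold in any split. *Krt15*, a keratin of basal cells and itself an epithelial marker, went with *Wnt4* at E14.5 (190 CPM in 85 cells with it and 61.4 without) and with *Wnt7b* at E16.5 (27.9 in 95 cells and 6.41 without). *Wnt7b* at E14.5 was lower in the 441 cells with *1500009L16Rik* (3.36 and 17.6 CPM), although these were the deeper cells, with a median of 6495 UMIs against 3679. *Igfbpl1*, an insulin-like growth factor binding protein relative, went with *Wnt6* at E14.5, at 68.0 CPM in 24 cells and 25.6 without. At E16.5 the 161 cells with *Pcp4*, a calmodulin regulator, were low in *Wnt4* (74.1 against 247 CPM) and in *Wnt6* (13.1 against 52.6). In mesenchyme of E11.5 *Barx1*, a homeobox factor of the proximal jaw, gave the only ratio past 2-fold, with *Wnt5a* at 55.1 CPM in 3104 cells with it (52.3 to 57.9) and 122 without (117 to 128). The cells with *Krt15*, *Igfbpl1*, *Pcp4* or *Barx1* were also the deeper side of each of these splits. No anchor passed 2-fold for any member in mesenchyme of E14.5.

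The members were also read in pairs in epithelial cells thinned to 2000 UMIs. At E14.5, 9 of the 30 epithelial cells with a *Wnt10a* UMI had one of *Wnt5a* (14.7% to 49.4%), against 9.50% of the 674 without (7.39% to 12.0%). At E16.5, 63.6% of the 22 cells with *Wnt7b* had *Wnt4* (40.7% to 82.8%), against 27.6% of the 1360 without (25.2% to 30.03%). *Wnt5a* was found in 14.4% of cells with *Wnt4* (11.1% to 18.3%) and 12.5% of those without (10.5% to 14.7%) at E16.5, intervals that overlapped.

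Between stages, with 10 CPM added, *Wnt4* and *Wnt7a* in epithelium and *Wnt5a* and then *Wnt6* in mesenchyme were called at least 2-fold higher at the later stage. Without the 10 CPM other members at low levels passed 2-fold in either direction. From E14.5 to E16.5 these included mesenchymal *Wnt10a* at 10.8-fold and epithelial *Wnt3* at 0.375 times. In epithelium 2 were called higher at E16.5 than E14.5 (*Wnt4* and *Wnt7a*), against 1.12% of genes, and 0 lower, against 0.286%. In mesenchyme 1 was called higher at E14.5 than E11.5 (*Wnt5a*), against 2.51%, and 0 lower, against 1.73%. *Wnt6* was the 1 member called higher in mesenchyme at E16.5 than E14.5, against 1.11%, and 0 were lower, against 0.344%, while *Wnt10a* had a log2 ratio of 0.95. Against the 10 epithelial cells of E11.5, 2 members were called lower at E14.5 (*Wnt4* and *Wnt6*), against 5.74%, and 0 higher, against 8.90%. In epithelium 7 members reached 20 UMIs at E14.5 against E11.5 and 9 at E16.5 against E14.5. In mesenchyme 6 reached it in each comparison. For *Wnt7a* and for mesenchymal *Wnt6* the log2 ratios were 1.02 and 1.04, close to the threshold of 1, and both counts moved under other settings.

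Over the 11 groups of a stage and lineage with at least 50 cells, the genes with the profile most like each member were found by Pearson correlation, among 12156 genes with at least 200 UMIs. The groups come from 3 samples and share markers and depth, so the values describe these groups only. *Bcam*, a laminin receptor (r = 0.991), and the epithelial marker *Krt5* (0.986) were nearest to *Wnt4*. *Zfr2* (0.9904) and the ephrin receptor *Epha7* (0.9897) were nearest to *Wnt5a*, *Sp6*, a transcription factor of dental epithelium (0.989), to *Wnt6*, and *Nell2* (0.993) to *Wnt10a*. *Wnt7a* came closest to *AI593442* (0.9998), *Vwde* (0.998) and the inhibitor gene *Sfrp5* (0.996). Of the 256 *Wnt7a* UMIs in kept cells 204 lay in epithelium of E16.5, so its profile rests mainly on 1 group. *Wnt7b* had *Zfp750*, a regulator of epidermal differentiation (0.999), *Wnt10b* the laminin chain *Lamb3* among its nearest 3 (0.998), *Wnt11* had *Islr* (0.995) and *Wnt5b* had *Notch3* among its nearest 3 (0.981). The others among the nearest 3 were *5033430I15Rik* for *Wnt4*, *Gm26692* for *Wnt5a*, *Wdr86* and *9330104G04Rik* for *Wnt5b*, *Syt5* and *Moxd1* for *Wnt6*, *Mir205hg* and *Plch2* for *Wnt7b*, *Grik1* and *Ndufa4l2* for *Wnt10a*, *Upk3bl* and *Cdcp1* for *Wnt10b*, and *Col8a2* and *Lrrc4b* for *Wnt11*. Genes with r of at least 0.99 numbered 6 for *Wnt7a*, 12 for *Wnt7b* and 22 for *Wnt10b*, so the genes named for these were near ties. *Wnt3* had fewer than 100 UMIs and was left out.

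Of the other Wnt ligand genes, *Wnt1* and *Wnt8a* had no UMI at any stage. In epithelium *Wnt3a* was at 3.40 CPM at E14.5 (2.11 to 5.20) and 9.24 at E16.5 (7.86 to 10.8), and *Wnt8b* went from 2 UMIs to 164, at 9.59 CPM (8.18 to 11.2). *Wnt9a* was mesenchymal, with 42, 174 and 211 UMIs at the 3 stages. *Wnt16* had 67 mesenchymal UMIs at E14.5 and 13 at E16.5, and *Wnt2* had 28 and 1. *Wnt2b* and *Wnt9b* had at most 17 UMIs in either tissue at any stage.

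The rest of the pathway was read from a list of 52 symbols, 51 of which were counted. *Wls*, the carrier that brings Wnt ligands to the cell surface, was at 165 CPM in epithelium and 162 in mesenchyme at E14.5, and at 290.0 and 170 at E16.5, a log2 ratio of 0.74 (0.68 to 0.80). Of the 48 listed genes with at least 20 UMIs, 4 were called higher in epithelium and 10 in mesenchyme at E14.5, and 4 and 15 at E16.5, beside 3.17% and 3.73% of all genes at E14.5 and 3.19% and 4.03% at E16.5. Among receptors *Fzd3* was higher in epithelium at E14.5 (147 and 59.9 CPM) and *Fzd6* (29.0 and 2.58) and *Fzd5* (23.8 and 4.397) at E16.5. Of the 4 R-spondins, which strengthen Wnt signals, *Rspo1* and *Rspo3* were called higher in mesenchyme at E14.5 and all 4 at E16.5, with *Rspo3* at 84.5 CPM there and 2.43 in epithelium at E14.5 and *Rspo2* at 69.6 and 0.819 at E16.5. *Rspo1* followed, with 17.02 CPM in mesenchyme and no epithelial UMI at E14.5, and 37.9 and 0.936 CPM at E16.5. *Rnf43*, a ligase that removes Frizzled receptors, was higher in epithelium at both stages (17.3 and 0.637, then 19.5 and 1.32). Of the secreted inhibitors, 6 were called higher in mesenchyme at E14.5 and 8 at E16.5, led by *Sfrp4* at E14.5 (166 and 3.08 CPM) and *Sfrp2* at E16.5 (511 and 6.55), with *Frzb* next at E14.5 (78.3 and 2.75) and *Sfrp4* at E16.5 (175 and 0.995), and *Sfrp5* was the 1 called higher in epithelium, at E16.5 (17.4 and 0.550). Among genes listed for transduction and response *Sp5* (34.0 and 5.04) and *Kremen2* (18.6 and 0.753) were higher in epithelium at E14.5, *Nkd1* (32.4 and 8.42) and *Tcf7* (22.1 and 5.83) in mesenchyme, and the transcription factors *Tcf7* (107 and 16.97) and *Lef1* (168 and 36.7) in mesenchyme at E16.5.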

How the data were processed

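The authors sequenced 10x Genomics 3′ libraries and made the deposited counts, UMIs per gene and cell, with Cell Ranger 4.0.0 on mm10, 1 matrix per stage. The counts were used as deposited, over 8708, 8192 and 5719 barcodes. The members and gene lists were chosen with earlier results of these data known. The UMIs of the cells of a lineage were summed, and levels, shares, ratios and their 95% intervals came from Python 3.11.15 scripts (numpy 2.4.6, scipy 1.17.1, pandas 2.3.3). Folds carry an exact conditional binomial interval, and against a group without UMIs they are bounds set at 3 UMIs. The ratio script was tested on simulated counts with counting error only. The simulated differences were placed in genes at higher levels than most members, and their recovery was not required for the E11.5 epithelium. No doublet caller was run. Cells whose top lineage had under 3 times the marker UMIs of another stayed without a lineage, but cells with fewer mixed markers kept theirs. Of the called epithelial cells, 488 of 777 at E14.5 and 968 of 1481 at E16.5 had no mesenchymal marker UMI. The 5% of cells with the most UMIs were left out as an alternative.

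Named were all members, the other Wnt ligand genes, the top 2 pathway genes per arm and direction, the top 3 genes of like profile, and the top anchor gene per member, tissue and stage. Anchors are a fixed list of genes for each tissue, and cells were split by whether they had a UMI of the anchor. Not all anchors mark a known cell type. Some, such as *1500009L16Rik*, *Igfbpl1* and *Pcp4*, came from earlier results of these same data. Gene positions are from GENCODE on GRCm38, not the release used for the counting. The 95% intervals narrow with depth, which was 47513863, 27765839 and 40024102 UMIs in kept cells.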

Additional observations from a re-analysis of the deposited data

Results flagged for a closer look

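For 2 members the difference between E14.5 and E16.5 went in opposite directions in the tissues, and the difference between them was not tested, since each stage was 1 sample. *Wnt5a* was higher at E16.5 in epithelium, with a log2 ratio of 0.39, and lower in mesenchyme, with -0.16. In epithelial cells without a mesenchymal marker UMI its level was 66.6 CPM at E14.5 and 65.5 at E16.5. Epithelial *Wnt4* was also lower in those cells at E16.5 than in all epithelial cells. *Wnt10a* was lower at E16.5 in epithelium, with a log2 ratio of -0.48, and higher in mesenchyme, with 0.95.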

How the results depend on the processing

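Each count of members was recomputed under 14 alternatives and 1 added after the data were seen, cells with no marker UMI of the other lineage. Of these values 177 stayed equal or within 1.5 times and 33 did not. The counts as reported ran only from 0 to 3, and a 0 that stayed 0 was taken as equal, so this tally says little about stability. The members' ratios of the 5 comparisons without the E11.5 epithelium were recomputed under the 14 alternatives. Of these values 583 stayed inside the counting interval of the ratio as reported and 117 did not. The 583 include all values of the alternative with no minimum of 20 UMIs, which cannot change a ratio. No called ratio reversed, but only ratios already past 2-fold were looked at for this, so a reversal was unlikely from the start. With 1 CPM added, members called higher in epithelium were 6 at E14.5 and 6 at E16.5, higher in mesenchyme 2 at each stage, higher at E14.5 than E11.5 1 in epithelium and 3 in mesenchyme, and at E16.5 against E14.5 2 higher in mesenchyme and 1 lower in epithelium. With 50 CPM added, 1 was higher in epithelium at E14.5 and 1 at E16.5, 0 in mesenchyme at E16.5, and at E16.5 against E14.5 1 in epithelium and 0 in mesenchyme. The count at E16.5 over E14.5 in epithelium was 1 with 10 times every other lineage's marker UMIs, with TMM factors, without *Krt5*, *Krt14* and *Krt15*, thinned to 2000 UMIs and in the added subset. In mesenchyme it was 0 with 10 times, TMM factors or the mean CPM of cells, and 2 without *Col1a2* and *Col3a1*. The mean CPM of cells gave 5 higher in epithelium at E14.5, and thinning gave 2 higher in mesenchyme at E16.5. For the 10 epithelial cells of E11.5, members higher than in mesenchyme were 0 when thinned, 1 without the 5% of cells with the most UMIs, 1 in the added subset and 5 with no minimum of 20 UMIs. At E14.5 over E11.5 in epithelium 1 was higher with TMM factors, the mean CPM or the added subset, and 1 lower in the added subset. The cause of these moves was not tested. No paired analysis was possible because each stage was 1 matrix whose cells carry no sample, and for the same reason no replicate could be left out.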
